A study of Cavia porcellus with 238 samples.

Results

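The 24 liver (Lvr) libraries of the guinea pig (GP, Cavia porcellus) were compared with the libraries of the 10 other tissues of the same animals. Members were chosen by label alone: the 24 columns labelled as liver, of 238 deposited libraries. Of these, 1 thyroid library (animal 19, a male non-breeder) that the study excluded was left out, so that 24 livers stood against 213 other libraries. There were 24 libraries each of kidney (Kid), adrenal gland (Adr), heart (Hrt), skin (Skn), hypothalamus (Hyp) and cerebellum (Cer), 23 of pituitary (Pit), 22 of thyroid (Thy), and 12 each of testis (Tes) and ovary (Ova). All animals were of strain HsdDhl:DH, and the labels name no allele or agent for any of them. Each sex had 6 breeders and 6 non-breeders, which gave 4 groups. At sampling 4 males were 0.74 years old (breeders 20 and 22, non-breeders 18 and 19), and the other animals were 0.95 to 0.97 years old.

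The liver makes most of the proteins of blood plasma, stores and releases glucose, turns ammonia into urea, makes bile acids, and oxidises drugs and toxins. Most of this is done by hepatocytes, which line blood sinusoids between the portal vein and the central vein. Kupffer cells, the resident macrophages, a fenestrated endothelium that takes up waste proteins, vitamin A storing stellate cells and bile duct cells make up the rest. The kidney carries out part of the same metabolism in its proximal tubule, including glucose production and the breakdown of amino acids.

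Levels below are CPM, the count of a gene per 1000000 counts of its library, and the 24 livers are given as their lowest, median and highest value. Log2 fold changes (log2 FC) come from a single edgeR fit of all 237 libraries on TMM-scaled counts (a scaling that sets the bulk of genes equal between libraries), with the standard error (SE). A gene was called at a false discovery rate (FDR) below 0.01 and a log2 fold change past 2. Genes called higher in the liver than in each of the 10 other tissues are termed liver-enriched, and genes called lower than in each of them liver-depleted. The next tissue of a gene is the other tissue with the highest fitted level (for liver-depleted genes, the one with the lowest), and all comparisons share the same liver libraries. A log2 FC in parentheses is that of liver against the tissue named beside it. Liver libraries held 13100629 to 20447520 counts and the others 3551108 to 22277626. RNA came from whole tissue, so fewer cells of a type and less RNA per cell cannot be told apart.

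The libraries labelled liver carried the defining genes of hepatocytes. ALB, which encodes serum albumin, had 59272, 71858 and 92709 CPM in the livers. CYP2E1, a cytochrome P450 that oxidises ethanol, had 11363, 18722 and 27104 CPM, and SERPINC1, which encodes antithrombin, had 5728, 6788 and 7582 CPM. No other library reached the lowest liver for any of the 3 genes. All 7 hepatocyte markers were liver-enriched, where 2.32% of the 15660 genes tested were, and their summed level was 107052 to 149611 CPM in the livers. Outside the liver that sum was highest at 3621 CPM in a cerebellum library, of which TTR, the carrier of thyroxine and retinol, made up 3618 CPM. It reached 333 CPM in hypothalamus, 298 CPM in skin and at most 85.1 CPM in the other 7 tissues.

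A low level of liver transcripts was present in a few other libraries. Skin of male non-breeder 30 had 171 CPM of ALB, which is 0.238% of the median liver, with 40.0 CPM of CYP2E1 and 15.3 CPM of SERPINC1. The other 23 skin libraries had 0 to 2.00 CPM of ALB. Adrenal gland of female breeder 1 had 27.5 CPM of ALB, and 7 more libraries held at least 5 CPM. The count of liver-enriched genes was 363 with and without the skin library, and all 363 were shared. Without the 9 libraries with at least 5 CPM of ALB, an alternative chosen after seeing the data, 364 genes were enriched and 362 of them were shared.

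**Figure D1:**
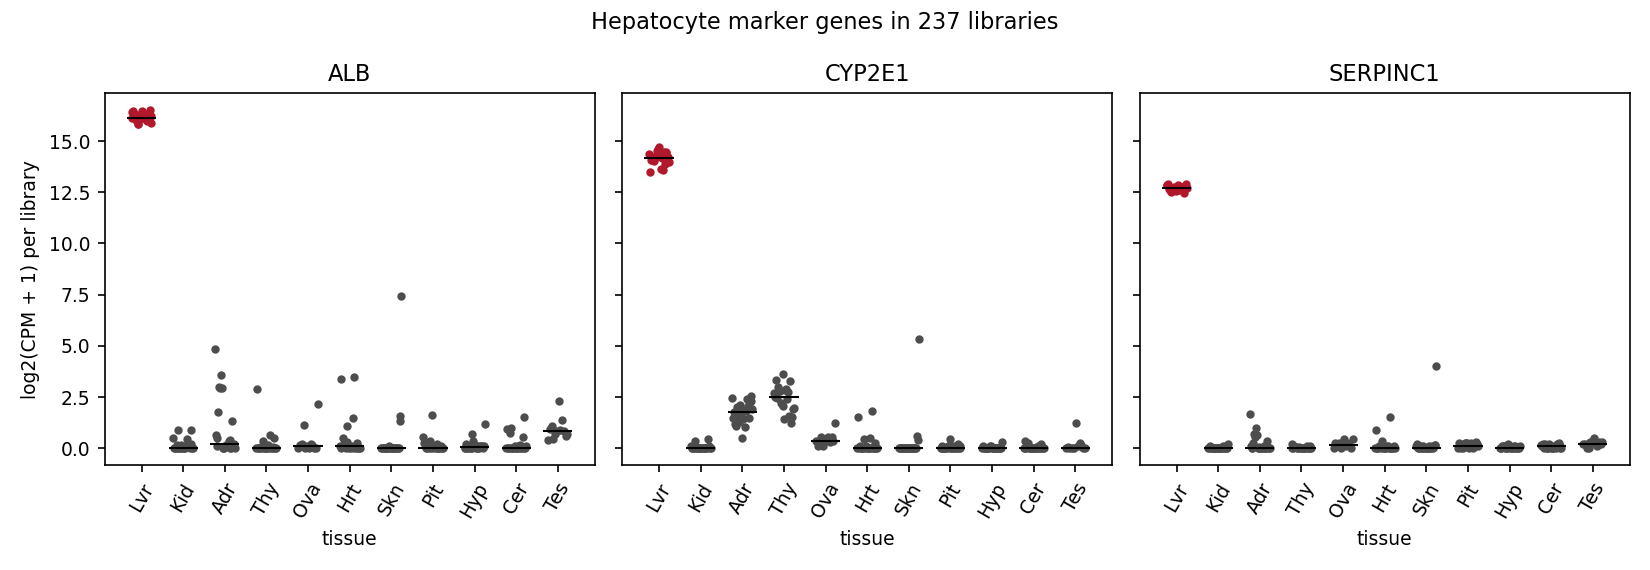
Levels of ALB, CYP2E1 and SERPINC1 as log2(CPM + 1) in each of the 237 libraries by tissue, 1 point per library with a bar at the tissue median. The 24 livers stand above all other libraries for the 3 genes, and skin of male non-breeder 30 (171 CPM of ALB) is the highest point outside the liver.

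A small set of genes filled much of the liver libraries. The 363 liver-enriched genes took 41.1 to 47.5% of the counts of a liver, with a median of 43.9%. In kidney, the next highest tissue, their median share was 2.27%, and in testis, the lowest, 0.286%. ALB alone took 5.93 to 9.27% of the counts of a liver. The most abundant 157 to 255 genes made up 50% of the counts of a liver, where at least 470 were needed in any other library. The TMM factors of the livers lay between 0.491 and 0.635, and those of the other libraries between 0.729 and 1.31, so the same CPM stands for a higher TMM-scaled level in liver than elsewhere.

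Against the mean of the 10 other tissues, 1509 of 15660 genes were higher in the liver (9.64%) and 2463 were lower (15.7%). Testis had the most calls, with 3210 genes higher (20.5%) and 4322 lower (27.6%). Kidney had the fewest genes below the liver, 1213 (7.75%), with 2134 above it (13.6%), and adrenal gland the fewest above it, 1853 (11.8%), with 1638 below (10.5%). Skin had 1609 genes below the liver (10.3%), and the counts for the 7 tissues other than testis, kidney and adrenal gland lay between 1526 (9.74%) and 2603 (16.6%) higher and between 2259 (14.4%) and 3469 (22.2%) lower. Over all genes tested, the median log2 fold change of liver against the mean was -0.14 under TMM and -0.99 by library total alone. By library total alone, 948 genes were higher and 3733 lower, so the share of higher among called genes fell from 38.0% to 20.3%.

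Genes higher than in each of the 10 tissues numbered 363 (2.32%), and genes lower than in each numbered 239 (1.53%). By library total alone these counts were 249, all of them among the 363, and 511. The median log2 fold change of the 363 genes against their next tissue was 3.77, above 10 in 38 genes and between 2 and 3 in 126. In 250 of them every liver lay above each of the 213 other libraries on the CPM scale, as in 262 of all genes tested. Kidney was the next tissue of 121 of the 363 genes, followed by skin (52), testis (51) and adrenal gland (35). The skin count includes genes such as F9 and APOB, whose next tissue changed without skin of male non-breeder 30. How many of the 52 depend on that library was not counted. Over all genes tested the median log2 fold change against the next tissue was -1.88, and kidney was the next tissue of 1337. Just inside the threshold were GAS2, PCBD1, SLC8B1, SLC35E3 and ANGPTL4, with log2 fold changes of 2.00 to 2.04 against the next tissue. Just outside were UPB1, RTP3, P2RY6, TNFSF14 and CYP8B1, with 1.97 to 1.99.

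**Figure D2:**
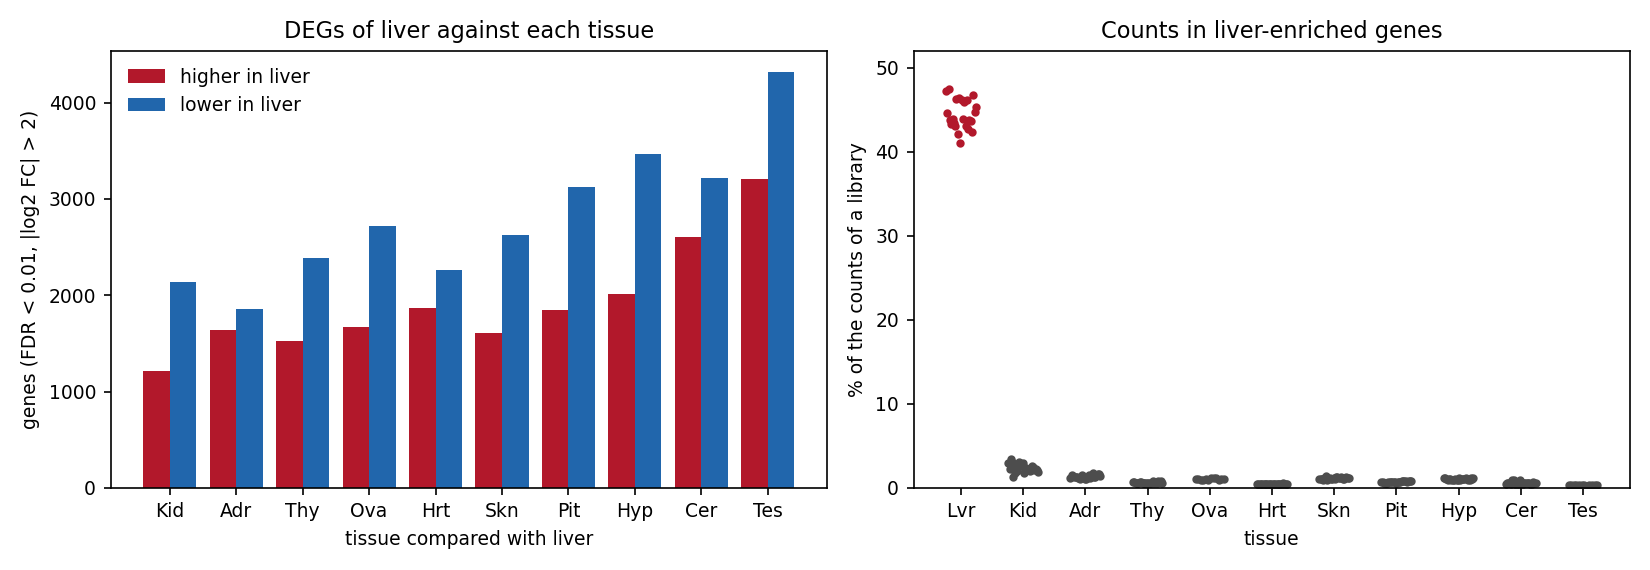
Left, bars of the number of genes called higher and lower in liver against each other tissue. Right, percent of each library's counts in the 363 liver-enriched genes, 1 point per library. Testis has the most calls in both directions, and the livers lie at 41.1 to 47.5% while the kidney libraries lie at 1.27 to 3.43%.

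Of the 197 enriched genes on one of the gene lists, the secreted proteins were the largest group. Of 36 tested carriers, acute phase proteins and inhibitors of plasma, 31 were liver-enriched, with a median log2 fold change of 6.67 against the next tissue. AHSG, which encodes fetuin-A and binds calcium phosphate, had 3269.8, 5037 and 9799.6 CPM in the livers and at most 2.24 CPM in testis, its next tissue (log2 FC 12.13, SE 0.48). AMBP, the precursor of alpha-1-microglobulin and bikunin, had 4884, 5866 and 6535 CPM, against 2.21, 6.90 and 12.2 CPM in kidney (log2 FC 10.51, SE 0.34). SERPINA1, which encodes the elastase inhibitor alpha-1-antitrypsin, had 6587, 10679.7 and 14484 CPM and a log2 fold change of 12.34 (SE 0.60) over testis. These 3 genes were separated from every other library. The carriers of iron and vitamin D were also far above other tissues: TF, transferrin, had 8852, 11599 and 14546 CPM against 178, 289 and 537 CPM in hypothalamus, and GC, the vitamin D binding protein, 5486, 6821 and 8260.4 CPM against 9.75, 11.7 and 13.9 CPM in testis.

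A few plasma genes were shared with other tissues or almost silent in the liver. HP, which encodes the haemoglobin carrier haptoglobin, had 1683, 5197 and 12682 CPM in the livers and 186, 612 and 1839.9 CPM in skin (log2 FC 3.76, SE 0.28), and 2 other libraries reached the lowest liver. SERPINA7, the thyroxine-binding globulin of plasma, had 0, 0.594 and 2.88 CPM in the livers and 12.5, 36.3 and 75.4 CPM in adrenal gland (log2 FC -4.76, SE 0.23). SHBG, the sex hormone carrier, had 0.0624, 0.397 and 0.756 CPM in the livers and 98.7, 109 and 132 CPM in testis (log2 FC -7.71, SE 0.20). SERPING1, the C1 inhibitor, and PON3, a lactonase of lipoproteins, were higher than the mean by 4.01 and 5.57 but reached only 1.70 (SE 0.13) over ovary and 1.72 (SE 0.14) over heart. LRG1, a leucine-rich plasma glycoprotein, had 19.4, 102 and 274 CPM in the livers, overlapping 88.9, 139.9 and 444 CPM in kidney, and its log2 fold change of 0.13 (SE 0.17) was -0.73 by library total alone.

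Of 27 genes of blood clotting and its control 22 were enriched, with a median log2 fold change of 5.66 against the next tissue. The fibrinogen chains FGA, FGB and FGG, from which fibrin is made, had medians of 8178, 6646 and 7137 CPM in the livers. F9, the factor missing in haemophilia B, had 407, 627 and 764 CPM in the livers and a median of 0 in skin. Its log2 fold change was 13.74 (SE 0.21) over skin, or 15.52 over adrenal gland without skin of male non-breeder 30. F2, prothrombin, was found at 69.2, 140.2 and 514 CPM in kidney beside 2398, 2901 and 3870.1 CPM in the livers (log2 FC 4.74, SE 0.20). F11 had 196, 325 and 542 CPM and at most 0.457 CPM in kidney, its next tissue (log2 FC 12.30, SE 0.17). The 5 members that were not enriched are known from cells other than hepatocytes. F8 and VWF, made by endothelium, had medians of 16.1 and 78.6 CPM in the livers, and THBD, the endothelial thrombin receptor, 24.7 CPM. F13A1, made by macrophages and platelets, had a median of 0.221 CPM, and F3, the tissue factor that starts clotting, 0.309 CPM. F3 had 59.5, 212 and 493 CPM in skin (log2 FC -8.24, SE 0.26), and each liver lay below each of the 24 skin libraries.

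Of 25 complement genes 17 were enriched, with a median of 3.58 against the next tissue. The terminal components C6, C8A and C9 had medians of 349, 624 and 627 CPM in the livers, with log2 fold changes of 10.26, 11.80 and 8.36 against the next tissue. MBL2, the mannose-binding lectin that starts the lectin pathway, had 330.3, 694 and 1026 CPM and at most 0.497 CPM in testis (log2 FC 11.97, SE 0.24). CFB, a protease of the alternative pathway, had 1848, 2391 and 3511 CPM, and its next tissue, pituitary, had 18.1, 36.5 and 77.6 CPM (log2 FC 7.16, SE 0.19). C7 and CFD were far below another tissue. C7, also a terminal component, had 0.582, 3.74 and 15.7 CPM in the livers and 83.5, 153 and 212 CPM in heart (log2 FC -4.67, SE 0.29), and CFD, the adipocyte factor D, had 0.955, 2.68 and 4.88 CPM against 725, 1818 and 6919.9 CPM in skin (log2 FC -8.95, SE 0.33). The chains of C1q, C1QA, C1QB and C1QC, made by macrophages, were higher than the mean by 3.07, 2.98 and 2.92 but reached only 1.38, 1.22 and 1.20 over the next tissue.

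Of 27 tested genes of apolipoproteins and lipoprotein export, 18 were enriched (median 4.34 against the next tissue), and APOA1, the main protein of high density lipoprotein, was not. APOB, the structural protein of very low density lipoprotein, had 3802, 5153 and 7885 CPM in the livers and a log2 fold change of 14.07 (SE 0.36) over skin, or 15.55 over kidney without skin of male non-breeder 30. APOA2 had 474, 816 and 1422 CPM against 0.0868, 0.432 and 2.42 CPM in kidney (log2 FC 11.32, SE 0.23), and APOC3, an inhibitor of lipoprotein clearance, 4734, 6491 and 9854 CPM against 33.7, 186 and 483 CPM (log2 FC 5.70, SE 0.26). APOE, the ligand of remnant receptors, was abundant in other tissues too, with 11272, 13182 and 18374 CPM in the livers and 1813, 2972 and 4609 CPM in adrenal gland (log2 FC 3.00, SE 0.12). APOA1 had 7.54, 44.1 and 967 CPM in the livers, and the value of 967 CPM belonged to female non-breeder 6. Heart had 316, 381 and 755 CPM of APOA1, so that 23 of the 24 livers lay below every heart library, with a log2 fold change of -1.63 (SE 0.26) for liver against heart and 6.38 against the mean of the 10 tissues. Without that animal they were -2.27 and 5.73, so that the difference from heart passed the fold threshold, as it did with the animal as a block (-2.41). SCARB1, the receptor that takes up high density lipoprotein, had a log2 fold change of -1.44 (SE 0.10) for liver against adrenal gland, which did not pass the threshold.

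**Figure D3:**
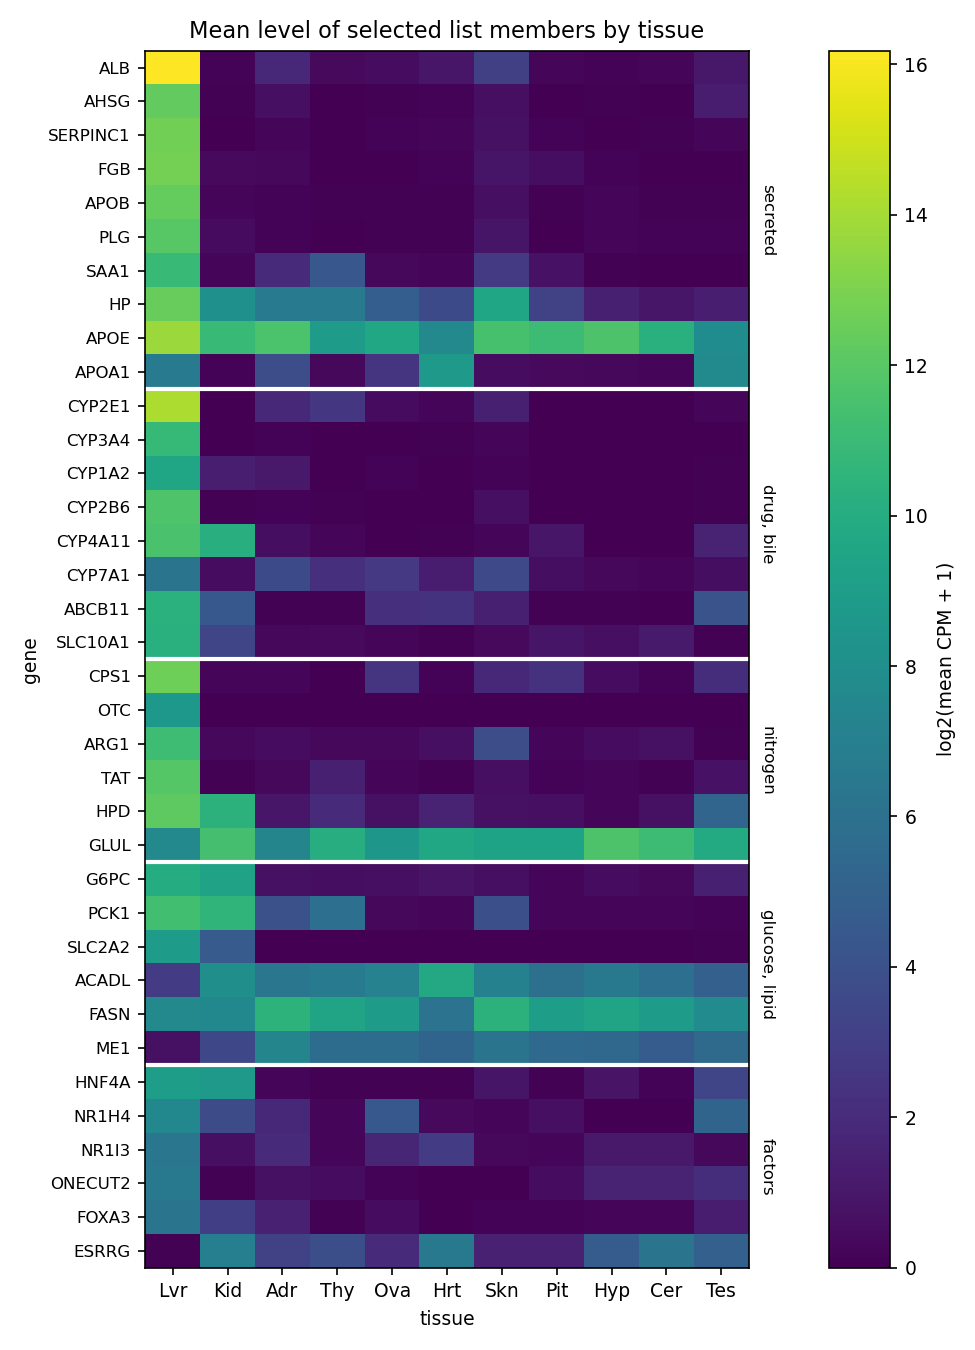
Mean level of 36 selected genes as log2(mean CPM + 1), shown by colour from 0 (dark) to the highest (yellow), with genes in the vertical and the 11 tissues in the horizontal direction. Most secreted and drug genes are bright in liver alone, HPD, G6PC, PCK1 and HNF4A are bright in liver and kidney, and GLUL, ACADL, FASN, ME1 and ESRRG are darker in liver than in most tissues.

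Among 48 tested cytochrome P450 and other drug enzyme genes, 25 were enriched (median 2.18 against the next tissue), and kidney was the next tissue of 24 of the 48. CYP3A4, which oxidises a wide range of drugs, had 808, 1846 and 3019.7 CPM in the livers and 0, 0 and 3.28 CPM in skin (log2 FC 14.61, SE 0.28). CYP2B6 had 1418, 3000.3 and 8017 CPM with 13.41 (SE 0.29) over skin, and CYP1A2, which oxidises caffeine, 285, 707 and 1315 CPM with 9.70 (SE 0.22) over kidney. The folds of CYP3A4 and CYP2B6 over skin were fitted with skin of male non-breeder 30 included. The counts behind the CYP symbols may be shared between near-identical paralogs, since the table names GP genes by their human counterparts. UGT1A9 and UGT2A3, which attach glucuronic acid, had medians of 306 and 71.9 CPM and 10.07 and 12.15 over the next tissue. Enzymes that kidney or adrenal gland shared included CYP2A13 with 981, 1493 and 2079.8 CPM in the livers and 14.2, 717 and 2044 CPM in kidney (log2 FC 1.68, SE 0.22), and POR, the electron donor of the P450 enzymes, with 561, 998 and 1469 CPM in the livers and 1379, 1879.5 and 2411 CPM in adrenal gland (log2 FC 0.03, SE 0.07, and -0.84 by library total alone).

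Some conjugating enzymes were low in the liver. SULT1C2, a sulfotransferase, had 0, 0 and 0.179 CPM in the livers and 104, 254 and 754 CPM in kidney (log2 FC -13.37, SE 0.31). SULT1E1, which sulfates oestrogens, was lower in every liver than in every adrenal library, with 18.2, 60.6 and 105 CPM against 1511, 2765 and 5475 CPM (log2 FC -4.87, SE 0.22). GSTP1, a glutathione transferase, had 9.47, 17.7 and 25.9 CPM in the livers and 1468, 2008 and 3629 CPM in thyroid (log2 FC -6.03, SE 0.11), whereas GSTA1, of the alpha class, was enriched, with 989, 1682 and 2396 CPM in the livers and 34.8, 242 and 395 CPM in kidney (log2 FC 3.63, SE 0.18).

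The route from cholesterol to bile was only partly liver-enriched, at 11 of 30 genes (median 1.04 against the next tissue). Uptake and export carriers stood out: SLC10A1, which takes bile acids up from blood, had 905, 1281 and 1729 CPM against 0.171, 6.11 and 73.4 CPM in kidney (log2 FC 7.88, SE 0.26), and ABCB11, the bile salt export pump, 681, 1267 and 2142 CPM against 14.7, 16.8 and 20.4 CPM in testis (log2 FC 6.64, SE 0.45). BAAT, which conjugates bile acids to glycine and taurine, had 362, 619 and 954 CPM (log2 FC 6.17, SE 0.32 over kidney). CYP7A1, the rate-limiting enzyme of bile acid synthesis, varied over the livers, with 3.71, 53.9 and 274 CPM, and overlapped 0.893, 7.19 and 39.1 CPM in adrenal gland (log2 FC 3.57, SE 0.29). AKR1D1, the reductase of the sterol ring, had 169.6, 246 and 423 CPM in the livers and 792, 3304 and 9972 CPM in adrenal gland (log2 FC -3.12, SE 0.21). NR0B2, a repressor of CYP7A1 in mouse and human, was likewise higher in adrenal gland, with 249.7, 570.5 and 1295 CPM against 24.1, 61.4 and 211 CPM in the livers (log2 FC -2.35, SE 0.14), while NR1H4, the bile acid receptor, was enriched in the liver with 110.2, 174 and 318 CPM (log2 FC 2.80, SE 0.21 over testis).

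Of 12 genes of the urea cycle and ammonia handling 9 were enriched, with a median of 3.67 against the next tissue. CPS1, which fixes ammonia in the first step, had 3779, 5569.6 and 12158 CPM in the livers and at most 4.83 CPM in testis (log2 FC 11.21, SE 0.40). OTC, which joins its product to ornithine, had 227, 385 and 589 CPM and a median of 0 in skin (log2 FC 13.90, SE 0.21). That fold was fitted with skin of male non-breeder 30 included. ARG1, which releases urea, had 1054, 1892 and 3979 CPM against 0.8, 8.73 and 37.6 CPM in skin (log2 FC 8.26, SE 0.28). ASS1 had 2157, 3171 and 6786 CPM and kidney 172, 395 and 888 CPM (log2 FC 3.84, SE 0.18). The enzyme that makes glutamine from ammonia, GLUL, had 70.7, 188 and 362 CPM in the livers and 2417, 3103 and 4517 CPM in hypothalamus, with a log2 fold change of -3.00 (SE 0.11) against hypothalamus and -1.39 against the mean.

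Of 46 genes of amino acid breakdown, 26 were enriched, and 29 were called higher and 1 lower in liver than in kidney. Over all genes tested, 7.75% were higher and 13.6% lower in liver than in kidney. Kidney was the next tissue of 31 of the 46, and of 18 of the enriched ones. TAT, which starts the breakdown of tyrosine, had 1513, 3915 and 6511 CPM in the livers (log2 FC 12.11, SE 0.32 over thyroid), and TDO2, which starts that of tryptophan, 413, 654 and 938 CPM (log2 FC 7.77, SE 0.21 over testis). UROC1, the urocanase of histidine breakdown, had 295, 430.1 and 549.6 CPM, and its next tissue, testis, at most 0.378 CPM (log2 FC 11.60, SE 0.20). HPD, which acts further down the tyrosine path, was nearer to kidney, with 3533, 4338 and 6647 CPM against 223, 1289 and 2742 CPM (log2 FC 2.56, SE 0.20). By library total alone it fell below the fold threshold. PIPOX, an oxidase of pipecolate, was called lower than in kidney, with 19.5, 36.1 and 72.6 CPM in the livers and 122, 457 and 675 CPM in kidney (log2 FC -2.71, SE 0.15), and the ranges stood apart. PRODH2, an oxidase of hydroxyproline, had 62.3, 139 and 258 CPM against 197, 493 and 938 CPM with overlapping ranges, and its log2 FC of -1.01 (SE 0.17) did not pass the threshold.

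The enzymes of glucose production were shared with kidney. PCK1, which commits carbon to glucose, had 1456, 2398 and 3941 CPM in the livers and 373, 1429 and 3226 CPM in kidney (log2 FC 1.51, SE 0.26). G6PC, which releases free glucose, had 742, 989 and 1533 CPM against 146, 569.5 and 1443 CPM (log2 FC 1.54, SE 0.14). The ranges of liver and kidney overlapped for both genes, and neither was enriched, although each was higher than the mean of the 10 tissues by 10.76 or more on the log2 scale. In all, 6 of 23 genes of glucose and fructose handling were enriched (median 1.40 against the next tissue). They included GYS2, the liver glycogen synthase, with 69.0, 145 and 290.1 CPM (log2 FC 7.77, SE 0.35 over testis), and SLC2A2, the low-affinity glucose carrier, with 189.8, 486 and 746 CPM (log2 FC 5.15, SE 0.15 over kidney).

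For many enzymes with tissue-specific forms, the form known from liver was higher than the mean of the 10 tissues and the other forms were not. MAT1A, which makes S-adenosylmethionine in liver, had 2946, 4222 and 6516 CPM and a log2 fold change of 12.62 against the mean, and MAT2A, its form in other tissues, 169, 321 and 693 CPM and 1.00. PYGL, the liver glycogen phosphorylase, had 148, 274 and 399.9 CPM (log2 FC 2.33, SE 0.16 over ovary, below the threshold by library total alone), the muscle form PYGM had 0.336, 1.00 and 1.98 CPM and the brain form PYGB 4.48, 7.38 and 9.93 CPM. PKM, the pyruvate kinase of most tissues, was liver-depleted with 12.1, 25.4 and 45.3 CPM, where the lowest tissue mean was 198 CPM. PKLR, the liver and red cell form, was not enriched, with 6.74, 17.5 and 38.6 CPM in the livers and 2.42, 10.7 and 23.8 CPM in kidney. FABP1, the liver fatty acid binding protein, had 67.8, 431 and 1058 CPM, overlapping with kidney at 16.6, 60.1 and 176 CPM, yet FABP7, known as the brain form, was also higher in the liver than the mean by 6.95. Of 46 such genes tested, the sign against the mean changed by library total alone for 4: HMGCS1 (0.82 to -0.04), HK3 (0.82 to -0.06), SLC2A4 (0.36 to -0.51) and CPT1C (0.46 to -0.41).

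**Figure D4:**
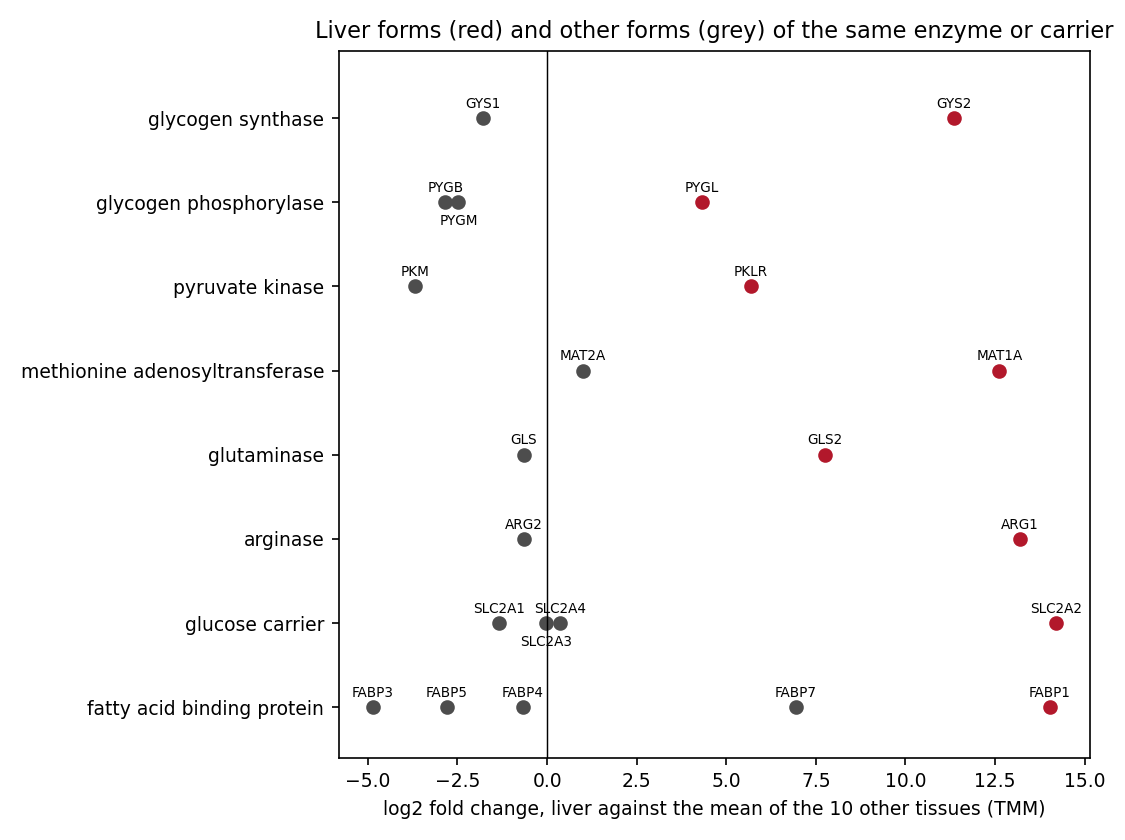
Log2 fold change of liver against the mean of the 10 other tissues (edgeR, TMM) for the forms of 8 enzymes or carriers, with the form known from liver in red and other forms in grey. Red points lie at 4.31 or more and most grey points below 0, the exceptions being FABP7, MAT2A and SLC2A4, of which SLC2A4 turns negative by library total alone.

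Of 39 genes of fatty acid and ketone metabolism, 20 were higher and 5 lower than the mean of the 10 tissues (median log2 fold change 2.38), and 4 were enriched (median -0.75 against the next tissue). Of all genes tested, 9.64% were higher, 15.7% lower and 2.32% enriched, so lower genes were no more frequent on this list. ACSM2A, which activates medium-chain acids, had 541, 743 and 1045 CPM in the livers (log2 FC 4.95, SE 0.15 over kidney), and HSD17B13, a lipid droplet protein, 753, 939 and 1302 CPM (log2 FC 8.92, SE 0.25 over thyroid). Some members had low levels in the livers. FASN, the fatty acid synthase, had 44.5, 89.2 and 1612 CPM against 866, 1392 and 1937 CPM in adrenal gland (log2 FC -2.01, SE 0.19), and SCD, the stearoyl-CoA desaturase, 2.44, 26.0 and 619 CPM against 875, 1239 and 1892 CPM in hypothalamus (log2 FC -3.31, SE 0.29). Without the liver of female breeder 14 these folds were -2.51 and -3.90, and without the other-tissue libraries holding 5 CPM of ALB that of FASN was -1.97, short of the threshold. The desaturase of polyunsaturated acids FADS2 and the malic enzyme ME1, which supplies NADPH, were liver-depleted. FADS2 had 0.197, 0.627 and 1.45 CPM in the livers and 542, 889 and 1114 CPM in adrenal gland. ME1 had 0, 0.589 and 1.71 CPM in the livers and 135, 165 and 204 CPM in adrenal gland. FASN reached its highest level in female breeder 14, and CPT1A, which admits fatty acids to mitochondria, ranged from 27.7 CPM in female non-breeder 9 to 1383 CPM in male breeder 20.

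Of 29 liver transcription factors and nuclear receptors, 9 were enriched (median 1.17 against the next tissue), and kidney was the next tissue of 10. HNF4A, a master regulator of hepatocyte genes, had 311, 519 and 715 CPM in the livers and 132, 413 and 715 CPM in kidney (log2 FC 1.17, SE 0.17). It was higher than the mean of the 10 tissues by 10.89 on the log2 scale. Enriched members included FOXA3, which opens chromatin at liver genes (26.3, 72.3 and 116 CPM, log2 FC 4.26, SE 0.21 over kidney), CREB3L3, a regulator of lipid genes (63.8, 118 and 254 CPM, log2 FC 4.62, SE 0.16 over kidney), and NR1I3, the xenobiotic receptor CAR (25.4, 83.6 and 114 CPM, log2 FC 4.23, SE 0.15 over heart). NR1I2, the xenobiotic receptor PXR, was nearer to kidney at 2.32 (SE 0.16), below the threshold by library total alone. ESRRG, an oestrogen-related receptor of oxidative tissues, was depleted, with 0, 0.028 and 0.26 CPM in the livers and 76.8, 123 and 170.4 CPM in kidney.

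Of 34 tested genes for hormones, iron handling and their receptors, 15 were enriched (median 1.77 against the next tissue). HAMP, which encodes the iron hormone hepcidin, had 19.9, 473 and 1580.1 CPM in the livers and 29.7, 37.8 and 46.7 CPM in testis (log2 FC 4.39, SE 0.33), and all 12 testis libraries exceeded the lowest liver. IGFBP1, a binding protein of insulin-like growth factors, had 208, 1146 and 3671 CPM and at most 4.65 CPM in hypothalamus (log2 FC 10.01, SE 0.24). IGF1 itself was not enriched, with 67.4, 116 and 193 CPM in the livers and 122, 195 and 513 CPM in ovary (log2 FC 0.12, SE 0.19, and -0.94 by library total alone). GCGR, the glucagon receptor, had 158, 232 and 311 CPM (log2 FC 4.83, SE 0.18 over pituitary), and AGT, the precursor of angiotensin, 1197, 1591 and 2685 CPM with 2.17 (SE 0.23) over hypothalamus, below the threshold by library total alone. DIO1, which converts thyroxine to its active form, was lower than in thyroid, with 67.8, 175 and 485 CPM against 526, 981 and 2023 CPM (log2 FC -1.46, SE 0.15).

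Markers of the other liver cell types were measured next. Of the 7 markers of Kupffer cells and macrophages 4 were enriched: CD5L, MARCO, CLEC4F and TIMD4, with medians of 144, 47.5, 51.8 and 16.6 CPM, whereas CD163, a scavenger receptor of macrophages, had 0, 0 and 0.427 CPM in the livers and 4.08, 13.3 and 53.2 CPM in skin. For sinusoidal endothelium, 4 of 5 tested were enriched, among them STAB2, which takes up hyaluronan (72.6, 164 and 257 CPM, log2 FC 3.76, SE 0.19 over ovary), and OIT3 (115, 242 and 310.3 CPM, log2 FC 4.12, SE 0.17 over kidney), while FCN3, a ficolin, had 0, 0.0605 and 0.225 CPM. The enriched CLEC4G and LYVE1 fell below the fold threshold by library total alone, at 1.17 over ovary and 1.37 over skin. None of 6 stellate cell markers was enriched, but 4 were called higher than the mean of the other tissues (median log2 fold change 4.23). They summed to 342 to 885 CPM in the livers, and their highest tissue mean elsewhere was 1976 CPM in ovary. None of 4 bile duct markers was enriched, with 1 higher and 1 lower than the mean of the other tissues. Among all genes tested, 9.64% were higher and 15.7% lower than that mean. The duct markers summed to 13.5 to 61.0 CPM in the livers, with the duct keratin KRT19 at 0 to 0.143 CPM. Of 4 tested B and T cell markers 3 were enriched. The remaining marker was called neither higher nor lower than the mean of the other tissues. CD3E, a chain of the T cell receptor complex, was the only enriched T cell gene among them. It had 29.9, 66.8 and 127 CPM in the livers (log2 FC 4.57, SE 0.19 over kidney). Also enriched were the B cell genes CD79A with a median of 12.2 CPM and MS4A1 with 0.326, 0.968 and 2.76 CPM. With the excluded thyroid library put back, their log2 fold changes of liver against thyroid were -0.04 for CD79A and -3.91 for MS4A1. By library total alone, MS4A1 fell below the fold threshold at 1.60 over thyroid. Markers of kidney tubule, thyroid follicles and muscle summed to at most 10.7, 0.182 and 1.18 CPM in any liver, and CYP11B1 of adrenal cortex was at 0 in all 24. The 3 adrenal cortex markers summed to 0.918 to 176 CPM, nearly all of it STAR, the cholesterol carrier of mitochondria.

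In mouse, hepatocyte genes differ along the axis from portal to central vein, and genes known from both ends were present here. Of 13 portal genes 9 were enriched (median 3.84 against the next tissue), among them SDS, a serine dehydratase (58.8, 364 and 1338 CPM, log2 FC 7.07, SE 0.29 over testis), and of 13 central genes 4 (median 0.34), among them LECT2, a secreted chemotactic factor (124, 206 and 325 CPM, log2 FC 7.26, SE 0.22 over testis). RHBG, an ammonium carrier of the central end, had 23.5, 49.0 and 73.7 CPM and did not pass the threshold over skin (log2 FC 1.88, SE 0.14), and GLUL, which forms the innermost central rim in mouse, was low as given above.

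The 239 liver-depleted genes were almost silent in the liver, with a median of mean levels at 0.0535 CPM. Of these, 222 had under 1 CPM, and 16 had no count in any of the 24 livers. In 90 of them every liver lay below every other library on the CPM scale. The same count over all genes tested was not made, so this number has no background beside it. BAI3, a brain adhesion receptor, had the largest fall against its next tissue, with a log2 FC of -6.98 for liver against heart, where its mean was 1.31 CPM, and had 119 CPM in cerebellum. MBOAT2, an acyltransferase of phospholipids, was present at 15.7 to 60.9 CPM as the mean of every other tissue and had 0, 0.142 and 0.488 CPM in the livers (log2 FC -5.44 against pituitary). RET, the receptor of glial-derived neurotrophic factors, had 0, 0 and 0.115 CPM in the livers and tissue means of 2.13 to 99.2 CPM elsewhere. LRFN5 and ITGBL1 had 0 counts in all 24 livers, and the lowest tissue means elsewhere were 0.283 and 0.804 CPM.

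The median SD of log2(CPM + 1) over the 24 livers was 0.384 for the 363 enriched genes and 0.267 for all genes tested. The added 1 lowers the SD of genes near 0 CPM. The enriched genes had a median of mean levels at 266 CPM, whereas 11624 of the 16009 genes reached a mean of 1 CPM in liver. These medians therefore cannot show whether enriched genes vary more between animals than others of like level. SAA1, an acute phase apolipoprotein, had 156, 1568 and 5840.1 CPM, and LBP, which binds bacterial lipopolysaccharide, 12.5, 336 and 1343 CPM. UPP2, a uridine phosphorylase, had 0.262, 31.2 and 349 CPM, IL1RN, the interleukin 1 receptor antagonist, 5.80, 27.1 and 993 CPM, and AFP, the fetal counterpart of albumin, 3.30, 12.6 and 170.4 CPM. For IL1RN the highest livers were those of male breeders 20 and 22, and 24 other libraries reached its lowest liver. At the stable end were SERPINC1, with an SD of 0.119 on that scale, and PLG, plasminogen, with 0.158.

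Of the liver-enriched genes, edgeR called 3 and 6 between the sexes and none between breeders and non-breeders, and DESeq2 called more. In a fit of the 24 livers alone, 12474 genes were tested and called at an FDR below 0.01 with no fold threshold, and all 363 enriched genes were among them. In non-breeders 3 of the 363 differed between females and males (2 higher and 1 lower in females), where 0.249% and 0.128% of all genes tested were higher and lower. In breeders 6 differed (1 higher and 5 lower), where 0.112% and 0.192% of all genes were. SERPINA6 and SLC17A1 were called in both. DESeq2 called 14 of the 363 in non-breeders and 14 in breeders, where 2.54% and 1.69% of all genes tested were. At an unadjusted p below 0.05 there were 74 of the 363 in non-breeders and 87 in breeders, where 21.4% and 18.6% of all genes tested were.

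SERPINA6, which encodes the corticosteroid-binding globulin of plasma, had 1131, 1520.5 and 2385 CPM in female breeders and 970.4, 1046 and 1599.9 CPM in female non-breeders. Male breeders had 351, 584 and 688 CPM and male non-breeders 162, 416 and 598 CPM, so that every female lay above every male. The log2 fold change of females against males was 1.58 (SE 0.26), FDR 0.00247 by edgeR in breeders and 1.60 (SE 0.26), FDR 0.00358 by edgeR in non-breeders. SLC17A1, a phosphate and urate carrier, went the other way, with 54.4, 66.6 and 134 CPM in female breeders and 34.3, 47.0 and 149 CPM in female non-breeders. Male breeders had 156, 257 and 287 CPM and male non-breeders 144, 193 and 248 CPM. Female non-breeder 6, with 149 CPM, overlapped with the lowest male at 144 CPM. Its log2 fold change was -1.66 (SE 0.27), FDR 0.00235 by edgeR in breeders and -1.56 (SE 0.26), FDR 0.00391 by edgeR in non-breeders.

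NR1H4, the bile acid receptor, was lower in female breeders (110.2, 139 and 158 CPM) than in male breeders (216, 252 and 318 CPM), and the ranges did not overlap (log2 FC -0.97, SE 0.14, FDR 0.000605 by edgeR). It stayed called in all 29 alternatives of this comparison. In non-breeders its values were 121, 147 and 185 CPM in females and 168, 213 and 268 CPM in males (log2 FC -0.44, SE 0.14, FDR 0.0638 by edgeR). CRP, the C-reactive protein of the acute phase, had 1.05, 2.65 and 10.1 CPM in female and 11.5, 15.3 and 63.5 CPM in male breeders (log2 FC -2.76, SE 0.49, FDR 0.00493 by edgeR). ACSM4, an acyl-CoA synthetase, had 37.7, 194 and 419 against 587, 845 and 1160.5 CPM (log2 FC -1.92, SE 0.37, FDR 0.00965 by edgeR), and P2RY14, a receptor of UDP-sugars, 36.6, 63.2 and 105 against 103, 133 and 171 CPM (log2 FC -1.09, SE 0.21, FDR 0.00849 by edgeR). DMGDH, an enzyme of choline breakdown, was higher in female non-breeders with 728, 1246 and 1477 CPM, against 501, 682 and 765 CPM in males (log2 FC 0.92, SE 0.18, FDR 0.00909 by edgeR). The interaction of sex and status called 0 genes with edgeR and with DESeq2 (1168 of 12474 at an unadjusted p below 0.05, or 9.36%), so that no difference of these sex effects between breeders and non-breeders was called.

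**Figure D5:**
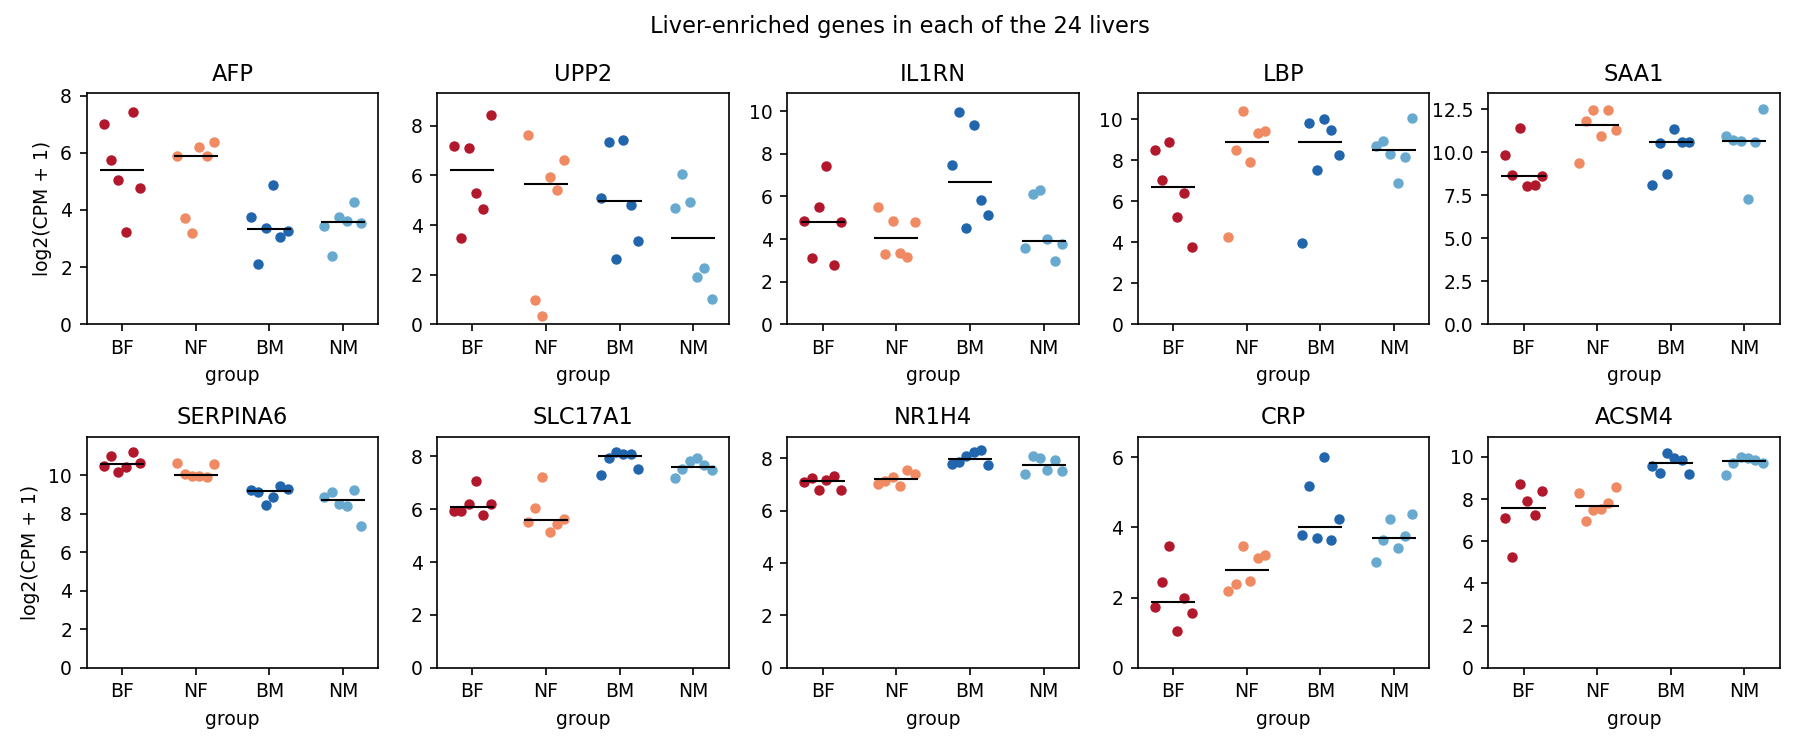
Levels as log2(CPM + 1) of 5 variable genes (upper panels) and 5 genes called between the sexes (lower panels) in the 6 livers of each group (breeders BF and BM, non-breeders NF and NM, with F for females and M for males), 1 point per animal with a bar at the group median. Every female lies above every male for SERPINA6 (970 to 2385 against 162 to 688 CPM), and every male lies above every female for ACSM4 (557 to 1160 against 37.7 to 419 CPM).

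The 4 animals of 0.74 years were all male, and the part of age in these calls was not tested beyond leaving them out. Without them, only NR1H4 remained called of the 9 results above, while most fold changes stayed close to those with them. SERPINA6 then had a log2 fold change of 1.56 in breeders (FDR 0.0380 by edgeR) and 1.66 in non-breeders (FDR 0.0261 by edgeR). SLC17A1 had -1.56 in breeders (FDR 0.0361 by edgeR) and -1.55 in non-breeders (FDR 0.0323 by edgeR), whereas CRP moved from -2.76 to -1.81. Leaving out 1 animal removed no call for NR1H4, or for SERPINA6 and SLC17A1 in breeders. Of 24 such fits, 19 removed the call of ACSM4, 17 that of DMGDH, 16 that of P2RY14 and 6 that of CRP. In non-breeders 3 removed that of SERPINA6 (female 3, males 19 and 23) and 6 that of SLC17A1. With only the 2 groups compared, 6 of the 9 results lost their call. These were ACSM4, CRP, DMGDH and P2RY14, and SERPINA6 and SLC17A1 in non-breeders. ACSM4 and DMGDH were also lost with no filter on low counts, and ACSM4 with median-of-ratios size factors. Between breeders and non-breeders, 0 of the 363 enriched genes were called by edgeR in females or in males (73 and 51 of them at an unadjusted p below 0.05, where 19.1% and 9.82% of all genes were). Over all genes, edgeR called 1 higher and 1 lower in female breeders (0.00802% each) and 0 in males, and for the 363 enriched genes DESeq2 called 3 and 0, where 0.577% and 0.0401% of all genes were.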

How the data were processed

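PolyA RNA of 11 tissues was sequenced single-end with an unstranded kit (TruSeq RNA v2), so overlapping antisense genes cannot be told apart, and the authors deposited a table of raw read counts per gene, made with STAR 2.4.1d and HTSeq per the submitters' processing notes, against the cavPor3 assembly. Deposited counts were not normalized or pooled. Of 16009 genes, 15660 passed edgeR's filterByExpr (minimum count 10, minimum total count 15). Counts were scaled by TMM and fitted over 237 libraries with edgeR's quasi-likelihood test, 1 coefficient per tissue and no animal block, with Benjamini-Hochberg FDR below 0.01 and |log2 FC| above 2. For a call against every tissue the largest of the 10 p-values was adjusted. The mean of the 10 tissues weights each tissue equally. Livers alone were fitted by sex and status. Tools were R 4.3.3, edgeR 4.0.16, limma 3.58.1, DESeq2 1.42.0, Python 3.11.15, numpy 2.4.6, pandas 2.3.3 and matplotlib 3.10.9. The fits were tested on simulated data.

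Members and gene lists were chosen with earlier results of these data known. Named genes were the 3 markers, the 12 enriched genes of highest mean CPM, the 10 with the largest log2 FC over the next tissue, the 10 depleted genes with the largest fall, the 10 most variable enriched genes, enriched genes called within liver, and members of the lists, of which some are counted in their list but not reported singly here. Forms of the same enzyme came in addition from a separate table. Tissues of 1 animal share its number: the median correlation of a liver's deviation with that of the same animal's other tissue was 0.027 to 0.101 over the 10 tissues. No 2 libraries of a tissue were identical, and livers correlated at 0.957 or more. Of the table's symbols, 27 were replaced by dates and are not named. Counts lack gene lengths, so levels are not compared between genes. Alternatives were other scalings, filters and thresholds, DESeq2, the animal as a block, 1 sex only, and libraries left out.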

Additional observations from a re-analysis of the deposited data

Results flagged for a closer look

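In 76 liver groups of 6 animals looked at for single animals far from the rest, 5 met Dixon's criterion. Chance gives about 1 in 20 in groups not chosen by their values, but many of the genes were taken as the most variable or as called between groups. In other tissues, 3 of 6 groups met it for ALB, and these were looked at because they held a library with at least 5 CPM of ALB, so the chance rate has no bearing on them. In male breeders, the liver of animal 25 had 92709 CPM of ALB and the other 5 had 65284 to 73289.7 CPM. In male non-breeders, animal 18 had 33.9 CPM of C6orf222 against 1.98 to 5.66 CPM in the others. Animal 23 of the same group had 156 CPM of SAA1 against 1542 to 5840.1 CPM, and animal 30 had 557 CPM of ACSM4 against 827 to 1037 CPM. In female breeders, animal 12 had 134 CPM of SLC17A1 against 54.4 to 72.9 CPM. These values were judged within their group only. For C6orf222, male breeders 20 and 22 had 29.5 and 46.5 CPM and male non-breeder 19 had 3.27 CPM. They and animal 18 were the animals of 0.74 years, and the part of age was not tested. Female breeder 15 had 90331 CPM of ALB, female non-breeder 6 had 149 CPM of SLC17A1 and male breeder 25 had 587 CPM of ACSM4. The SAA1 value of animal 23 was the lowest of all livers.

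Outside the liver, skin of male non-breeder 30 had 171 CPM of ALB where the other 5 of its group had 0 to 2.00 CPM. Heart of female breeder 2 had 9.33 CPM where the others had 0 to 1.13 CPM, and thyroid of the same animal had 6.30 CPM where the other 4 had 0.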

How the results depend on the processing

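The count of genes above every other tissue was 355 to 387 with DESeq2 (356, all 356 shared), median-of-ratios size factors (355), no filter (366), the excluded thyroid library put back (356), females only (387), males only (374) and the animal as a block (367, 360 shared). The count below every other tissue was 192 to 329 under the same settings, with 234 of the 239 shared under the block, and the block changed no other count by over 1.5 times. By library total alone the count below every tissue was 511, and against the mean 948 genes were higher and 3733 lower. Under that scaling the lower count was 2988 for Adr, the higher count 1681 for Cer, 1236 for Hyp and 736 for Kid, and the higher and lower counts were 1009 and 4529 for Ova, 1065 and 4786 for Pit, 1024 and 3995 for Skn, and 962 and 3629 for Thy. With |log2 FC| above 1, 683 genes were above and 584 below every tissue, and 2782 and 3995 above and below the mean. The higher and lower counts were then 2901 and 3225 for Adr, 3515 and 3924 for Hrt, 2491 and 3461 for Kid, 3119 and 4270 for Ova, 3036 and 4139 for Skn, and 2910 and 3760 for Thy, and the higher counts 4390 for Cer, 3836 for Hyp, 3580 for Pit and 4977 for Tes. Of 450 named genes, 36 lost and 6 gained their call against the next tissue by library total alone. CD79A (-0.040) and MS4A1 (-3.91) against the next tissue reversed with the thyroid library put back. Leaving out the liver of female non-breeder 6 or of female breeder 14, each chosen after seeing the data, gave 367 and 366 genes above every tissue, with all 363 shared.

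Within liver, DESeq2 called 317 genes between the sexes in non-breeders and 211 in breeders, and 72 and 5 between breeders and non-breeders in females and males. With only the 2 groups compared, these counts were 11 and 6 for sex and 0 for status in females. Without the 4 males of 0.74 years they were 3 and 9 for sex. Leaving out 1 animal gave 5 to 124 calls for sex in non-breeders, 17 to 44 in breeders, 0 to 4 for status in females, 0 to 3 in males (3 without male non-breeder 18) and 0 for the interaction. No paired analysis was possible within liver because the groups hold different animals. The cause of these changes was not tested. Depth limits genes with few counts per liver and comparisons with the shallowest kidney libraries.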
